A study of Mus musculus with 2 samples.

Results

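The genes described here are those of the glycinergic synapse in the embryonic mouse hindbrain. They comprise the glycine receptor subunits Glra1, Glra2, Glra3 and Glrb, the glycine transporters Slc6a5 and Slc6a9, and gephyrin, Gphn, which anchors the receptor. They were taken by name, and all 7 were matched by Ensembl identifier among the 43346 genes of the tables, with 28 annotated transcripts between them. Glra4, the remaining alpha subunit gene, is given beside them so that subunit proportions are complete. Hindbrains were taken from B6NCrl mice 15.5 days into embryonic development, with males and females pooled and no treatment or genetic change named, and total RNA was sequenced. The series held 1 group of 2 biological replicates, a pool of 78 embryos (replicate 1) and a pool of 62 embryos (replicate 2). No condition was set against another, so there is no p-value. The pools are the replicates, and their spread need not be that between animals. The question was at which level, in which proportions and as which transcripts these genes were present, and how far the pools differed.

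Glycine is the main inhibitory transmitter of the brainstem and spinal cord, beside GABA. Its receptor is a chloride channel built from alpha subunits, which bind glycine, and the beta subunit, whose intracellular loop binds gephyrin and thereby holds the channel at the synapse. In rodents the alpha2 subunit is known as the fetal form, and alpha1 takes its place after birth. Of the transporters, Slc6a5 encodes GlyT2, which loads glycinergic neurons with glycine and marks them, and Slc6a9 encodes GlyT1, which is found mainly on glia and clears glycine from the synapse.

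The replicates held 40020322 and 43263959 estimated counts in genes, in that order. Levels are given in TPM, a relative abundance corrected for length, so that genes can be set side by side. Means are ± SD with n = 2, and a gene was called detected where each library held at least 1 TPM of it. A median over genes is that of their mean levels, and the SD beside it is that of the 2 library medians. In bulk tissue, fewer cells that make a transcript and less of it per cell cannot be told apart. Of all nuclear protein-coding genes 63.1% were detected, and the marker counts that follow stand beside that share. The neuronal markers Tubb3, Stmn2, Elavl3, Snap25 and Rbfox3 were all detected, as were all 6 hindbrain markers. All 5 midbrain markers were detected, and so were the 3 markers each of choroid plexus, erythroid cells and meninges. The choroid plexus markers summed to 897 TPM in replicate 1, against 1232 TPM in replicate 2, the erythroid markers to 6358 and 4973 TPM and those of the meninges to 397 and 328 TPM. Of 8 forebrain markers 1, Neurod6, was detected in both libraries, and in replicate 2 alone 6 were. Their summed level was 26.1 TPM in replicate 1, against 49.0 TPM in replicate 2, of which Neurod6 held 23.6 and 35.4 TPM. Of the 8, 6 were more than 1.5-fold lower in replicate 1, against 381 of the 17048 genes whose mean count was at least 20. The median log2 ratio over the list was -2.33. The 7 caudal hindbrain and spinal cord markers summed to 18.7 TPM in replicate 1, against 50.3 TPM in replicate 2, with Hoxc10 at 0 in both. Hoxb8 held 14.61 and 21.15 TPM of these sums. Of the 4 of these markers with a mean count of at least 20, 3 were more than 1.5-fold lower in replicate 1. These were Hoxc8 at 1.88 and 13.42 TPM, Hoxb9 at 1.70 and 12.75 TPM and Hoxa9 at 0.45 and 2.78 TPM. The median log2 ratio of the 4 was -2.83. The part of these neighbouring regions and other cell types in the values below was not tested.

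Every member was detected in both libraries, 7 of 7, against 63.1% of the 21461 nuclear protein-coding genes of the tables. The median of the members was 36.3 ± 1.53 TPM. The same median over all nuclear protein-coding genes was 5.72 ± 0.0212 TPM, and over the 13542 of them that were detected it was 19.4 TPM. The members fell into 3 tiers. Glra2, Glrb, Gphn and Slc6a9 stood close together at 34.8 to 38.3 TPM, Slc6a5 stood at about 8 TPM, and Glra1 and Glra3 lay near the detection minimum. Detection of the last pair depended on that minimum: at 2 TPM 5 of the 7 were detected, and at 1 FPKM, where Glra1 was missed in replicate 1 with 0.97, 6 were. Of the 21461 nuclear protein-coding genes, 12599 were detected at 2 TPM and 12911 at 1 FPKM.

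**Figure D1:**
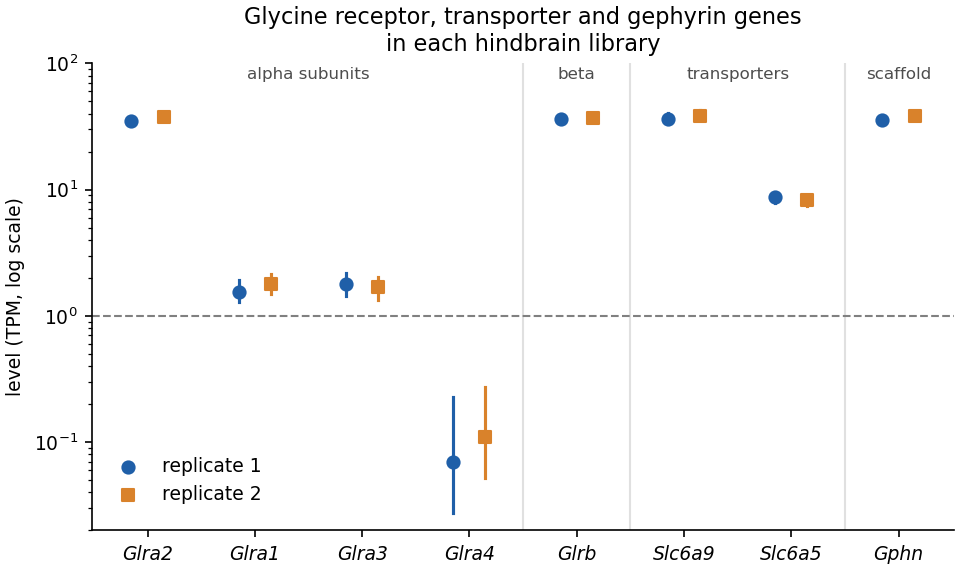
Level of each gene in each library (TPM, log axis), with circles for replicate 1, squares for replicate 2, vertical lines for the authors' posterior interval and a dashed line at 1 TPM. Glra2, Glrb, Slc6a9 and Gphn lie between 34.8 and 38.3 TPM, while Glra1 and Glra3 lie just above the line and Glra4 below it.

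Among the alpha subunits, Glra2 (X chromosome, 165129017 to 165327393 on GRCm38, minus strand) had 34.8 TPM in replicate 1, against 37.7 TPM in replicate 2. The mean was 36.3 ± 2.10 TPM, from 2745 and 3147 estimated counts, and 78.9% and 79.9% of nuclear protein-coding genes lay below it. Both libraries thus placed the fetal alpha subunit well within the upper part of the transcriptome.

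Glra1, the alpha subunit of the mature receptor (chromosome 11, 55514238 to 55608198, minus strand), had 1.55 TPM in replicate 1, against 1.78 TPM in replicate 2. These rested on 92 and 110 counts, and the authors' posterior intervals ran from 1.28 to 1.92 TPM and from 1.49 to 2.15 TPM. Glra3, an alpha subunit known from pain-processing spinal neurons in mice (chromosome 8, 55940460 to 56130070, plus strand), had 1.80 and 1.69 TPM, from 85 and 86 counts. Its intervals were 1.42 to 2.17 TPM and 1.33 to 2.03 TPM, so Glra1 and Glra3 could not be ordered. Glra3 was above Glra1 in replicate 1 and below it in replicate 2.

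Glra4, on the X chromosome, had 0.07 TPM from 3 counts in replicate 1 and 0.11 TPM from 5 counts in replicate 2. A floor of 3 counts in that library corresponds to 0.0738 TPM in replicate 1, against 0.0646 TPM in replicate 2 for this gene. Glra4 was therefore at the floor in replicate 1 and little above it in replicate 2. The floor covers counting error only.

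The beta subunit gene Glrb (chromosome 3, 80843599 to 80913660, minus strand) had 36.4 TPM in replicate 1, against 36.9 TPM in replicate 2, from 2613 and 2828 counts. Its SD was 0.983% of the mean, the smallest among the members, for which that ratio ran up to 9.77% in Glra1. The coding sequences of the subunits are related, so their likeness and the posterior spread of the gene counts are given here. In pairwise global alignment, the 4 alpha subunit genes were 72.7% to 75.8% identical over aligned bases, with no identical run longer than 26 bases. Glrb was 58.6% to 61.5% identical to them, with no identical run longer than 14. The authors' posterior SD of the gene count was 0 for Glra2, Glra3, Glrb, Slc6a5 and Gphn in both libraries, and 0.48 and 0.32 counts for Glra1.

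In proportions of summed TPM, the receptor RNA was split nearly evenly between alpha and beta. Glrb held 48.8% of the subunit RNA in replicate 1 and 47.2% in replicate 2, and the alpha genes held the rest. The alpha sum over Glrb was 1.05 in replicate 1 and 1.12 in replicate 2. Glra2 alone stood at 0.955 and 1.02 times the level of Glrb. The direction of that last ratio differed between the libraries, so the levels of Glra2 and Glrb could not be told apart.

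Within the alpha subunits, Glra2 held 91.2 ± 0.206% of the RNA. Glra1 held 4.06% in replicate 1 and 4.31% in replicate 2, Glra3 held 4.71% and 4.09%, and Glra4 held 0.183% and 0.266%. Glra2 exceeded Glra1 by 22.4-fold in replicate 1 and 21.2-fold in replicate 2, and Glra3 by 19.3-fold and 22.3-fold. In estimated counts, which are not corrected for length, Glra2 over Glra3 was 34.4 and Glra3 held 2.74% of the alpha subunits, against means of 20.8 and 4.40% in TPM. The Glra3 value in TPM rests on a model of 1867 bases. These are proportions of RNA per length and not of subunit protein or of assembled channels.

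**Figure D2:**
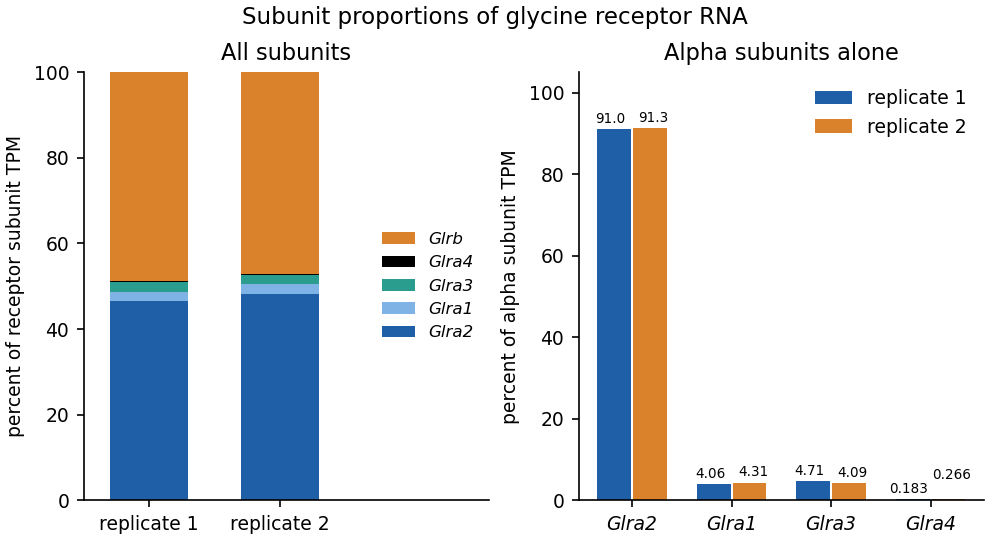
Left, each subunit gene as percent of the summed TPM of the 5 receptor subunit genes in each library; right, each alpha subunit gene as percent of the alpha sum, with the value above each bar. Glra2 holds 91.0% of the alpha RNA in replicate 1 and 91.3% in replicate 2, and Glrb close to an equal part with all alpha genes together.

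Of the transporters, Slc6a9 (GlyT1, chromosome 4, 117834506 to 117875198, plus strand) had 36.2 TPM in replicate 1, against 38.3 TPM in replicate 2, from 2390 and 2939 counts. Slc6a5 (GlyT2, chromosome 7, 49910146 to 49963856, plus strand) had 8.68 and 8.20 TPM, from 1450 and 1427 counts. Slc6a9 was thus higher in both libraries, by 4.17-fold in replicate 1 and 4.67-fold in replicate 2. Slc6a5 made up 19.3% and 17.6% of the transporter RNA. Without length correction the gap was smaller, since Slc6a5 transcripts are longer, and Slc6a5 held 35.2% of the transporter counts on average.

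The value of Slc6a9 carries a limit of its annotation. On the opposite strand, exons of Ccdc24 share 1420 of the 3146 exon bases of its leading transcript in GENCODE M21, and whether counting used strand is not given in the sources used here. Ccdc24 was listed at 2.02 TPM in replicate 1, against 2.63 TPM in replicate 2. The highly expressed neighbour B4galt2, at 45.3 and 56.4 TPM, shares 37 exon bases with that transcript. The posterior SD of the Slc6a9 count was 10.5 and 11.2 counts. The part of opposite-strand reads in the level of Slc6a9 was not tested. No exon of another annotated gene overlapped those of Glra2, Glra3, Glrb or Slc6a5. Genes on the opposite strand overlapped exons of Glra1 and Gphn. That of Glra1, the antisense gene Gm12236, was listed at 0 in both libraries, and that of Gphn, the noncoding Gm48226, was not analysed here.

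Gphn (chromosome 12, 78226379 to 78684772, plus strand) had 35.6 TPM in replicate 1, against 38.0 TPM in replicate 2, from 2943 and 3317 counts. Gephyrin is the scaffold beneath glycine receptors and many GABA-A receptors, and it also carries out the last steps of molybdenum cofactor synthesis in all tissues. The 5 receptor subunit genes together had 2.10 times the level of Gphn in replicate 1 and 2.06 times in replicate 2. In the order of mean levels, Slc6a9, Gphn, Glrb and Glra2 came first, with the highest mean only 1.03 times the lowest. Each neighbouring pair among them had overlapping posterior intervals in both libraries. Slc6a5 and the lower pair were each separated from the next higher gene, by 4.30-fold below Glra2 for Slc6a5 and by 4.84-fold below Slc6a5 for Glra3, with no overlap of the libraries.

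At the transcript level, Gphn was divided between a pair of coding forms in both libraries. Its 2 annotated transcripts in the tables, Gphn-201 and Gphn-202, both code for protein. Gphn-201 contains 2 coding exons that Gphn-202 lacks, and Gphn-202 contains 1 that Gphn-201 lacks, all whole numbers of codons, so the reading frame is kept. The 9-base difference in the deposited lengths of the pair equals the difference made by these exons. They are shown because they are what separates the pair, with 15 flanking bases of the transcript in lower case and the exon itself in capitals, from GENCODE M21 on GRCm38, plus strand. Exon A covers chr12:78522898-78522954, exon B chr12:78532657-78532698 and exon C chr12:78493950-78494057.
Gphn-201 exon A: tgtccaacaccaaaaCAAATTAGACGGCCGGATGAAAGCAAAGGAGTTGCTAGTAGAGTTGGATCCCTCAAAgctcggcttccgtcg
Gphn-201 exon B: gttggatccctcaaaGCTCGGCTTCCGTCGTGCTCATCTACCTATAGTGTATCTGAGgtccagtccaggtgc
Gphn-202 exon C: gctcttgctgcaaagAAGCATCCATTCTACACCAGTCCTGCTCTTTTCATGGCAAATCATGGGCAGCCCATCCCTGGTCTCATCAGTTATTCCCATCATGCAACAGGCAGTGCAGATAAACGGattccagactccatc

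Gphn-201, with exons A and B of 57 and 42 bases, held 61.9% of the gene's TPM in replicate 1 and 64.4% in replicate 2, at 22.04 and 24.48 TPM. Gphn-202, with exon C of 108 bases, held 38.1% and 35.6%, at 13.6 and 13.5 TPM. The posterior SD of the count was 91.3 counts in replicate 1 and 87.6 in replicate 2 for each of them, against 1820 and 2134 counts of Gphn-201. The posterior intervals of the pair did not overlap in either library, from 19.2 to 23.8 TPM and from 11.1 to 15.6 TPM in replicate 1 for Gphn-201 and Gphn-202. Other combinations of these exons have no model in the tables, so the shares are those of the models and not of each exon. In M21 the same models have other ends, with 3570 and 3300 bases against 3289 and 3298 in the tables.

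Glra2 had 1 transcript in the tables, Glra2-201. The pair of alternative coding exons for which this gene is known in rodents is therefore not resolved by these values. Glra1 had 3 transcripts, which all code for protein. Glra1-202 held 100% of the TPM in replicate 1 and 92.7% in replicate 2. Glra1-201 starts its last exon 24 bases earlier and so adds 8 codons to the large intracellular loop. It is shown beside the same junction of Glra1-202, on the minus strand, with the added bases (chr11:55515104-55515127) in capitals and, in lower case, 15 bases of the exon before and the next 15 bases of the last exon.
Glra1-201: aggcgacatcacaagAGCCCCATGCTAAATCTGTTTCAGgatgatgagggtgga
Glra1-202: aggcgacatcacaaggatgatgagggtgga

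The longer form Glra1-201 was listed at 0 counts in replicate 1 and 6.7 counts in replicate 2, which is 7.30% of the gene there. In posterior mean TPM its share was 5.03% and 9.39%, and its posterior interval reached 0.226 TPM in replicate 1, against 0.358 TPM in replicate 2. At about 100 counts for the whole gene, a difference between the libraries in this insert was not detectable at this depth. Glra1-203, which has 1 exon fewer, was listed at 0 in both.

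Glra3 and Glrb were each dominated by 1 coding transcript. Glra3-201 held 96.7% of the gene in replicate 1 and 94.7% in replicate 2, and the noncoding Glra3-202 the remaining 3.35% and 5.33%, from 5.79 and 8.74 counts. The model of Glra3-201 is 1867 bases long in the tables and 6508 bases in M21, so reads from the added part of its end stood outside these counts. Glrb-201, the full-length coding transcript, held 91.3% and 90.9%. Glrb-203, a short model annotated as a target of nonsense-mediated decay, held 5.55% and 4.41%, from 24.2 and 20.7 counts. The other 4 Glrb transcripts each held 3.76% or less, and together 3.16% in replicate 1 and 4.66% in replicate 2.

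The pair of Slc6a5 transcripts in the tables have 2373 coding bases each and differ at their ends. Slc6a5-201, of 7065 bases, held 88.9% of the TPM in replicate 1 and 87.1% in replicate 2, and Slc6a5-202, of 2467 bases, held 11.1% and 12.9%. In estimated counts Slc6a5-202 held 4.06% and 4.81%, since its model is shorter.

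Slc6a9 was the most divided member, with 12 transcripts in the tables. They start at several places, and in rodents an upstream and a downstream start give GlyT1 forms that differ at the amino end of the protein. The coding bases that are particular to each start are given here in capitals, with the first 15 bases of the shared next exon in lower case, on the plus strand of GRCm38. Those of Slc6a9-202 lie at chr4:117843106-117843135 and those of Slc6a9-209 at chr4:117849380-117849466.
Slc6a9-202: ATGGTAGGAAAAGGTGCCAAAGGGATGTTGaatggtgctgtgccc
Slc6a9-209: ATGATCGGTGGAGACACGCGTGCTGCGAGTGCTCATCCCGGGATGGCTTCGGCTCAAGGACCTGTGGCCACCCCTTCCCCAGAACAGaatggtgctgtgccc

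The 6 transcripts that use the upstream coding start, or its exon, held 92.2% of Slc6a9 TPM in replicate 1 and 89.3% in replicate 2. The 3 transcripts with the downstream start, Slc6a9-204, Slc6a9-209 and Slc6a9-211, held 4.00% and 6.35%, from 41.7 and 102 counts. The remaining 3 transcripts, which hold neither, had 3.78% and 4.36%. The downstream group was therefore the minor one in both libraries, and in posterior mean TPM its share was 4.93% and 6.69%. None of the 3 downstream models reaches the annotated end of Slc6a9-202. Slc6a9-204 and Slc6a9-211 end at 117864004, and Slc6a9-209 ends at 117868425, inside the last exon of Slc6a9-202, which runs to 117869296. Reads beyond the end of Slc6a9-209 could not be assigned to a downstream model. The part of this in the shares was not tested. Exons of Ccdc24, on the opposite strand, share 1420 bases with Slc6a9-202 and 549 with Slc6a9-209. They share 0 with Slc6a9-204 and Slc6a9-211. The part of opposite-strand reads in the shares was not tested either.

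Within the upstream group, Slc6a9-202 held 52.9% of the gene in replicate 1 and 60.5% in replicate 2, and Slc6a9-201 held 21.5% and 23.0%. These have the same 1899 coding bases and differ in their noncoding first exons. Slc6a9-206, a noncoding model of 488 bases, held 11.3% in replicate 1 and 2.38% in replicate 2, from 41.3 and 9.7 counts. Its posterior intervals, 0.00858 to 6.78 TPM and 8.4e-05 to 4.1 TPM, overlapped over most of their range, so that difference lies within the error of the estimate. The other 9 transcripts held 14.3% and 14.2% together, none more than 3.56%.

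The 300 bases around 2 start sites that RefSeq gives for Slc6a9 (GRCm38.p6, plus strand, 250 before and 50 after the start) are shown because 1 lies upstream of each coding start. The upstream window is chr4:117835008-117835307. Its RefSeq start, 117835258, lies inside the first exon of Slc6a9-201, which begins at 117835051 in M21, and the leading Slc6a9-202 begins at 117834506, outside the window. The downstream window is chr4:117849100-117849399. Capitals mark the letters GGGCGG or, for the other strand, CCGCCC, the core of the GC box.
Slc6a9 upstream: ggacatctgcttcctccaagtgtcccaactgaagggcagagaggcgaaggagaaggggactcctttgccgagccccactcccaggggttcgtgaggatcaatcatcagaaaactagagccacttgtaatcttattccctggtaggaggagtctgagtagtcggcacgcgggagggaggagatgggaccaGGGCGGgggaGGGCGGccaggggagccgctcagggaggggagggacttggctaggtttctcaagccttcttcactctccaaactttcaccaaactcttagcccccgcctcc
Slc6a9 downstream: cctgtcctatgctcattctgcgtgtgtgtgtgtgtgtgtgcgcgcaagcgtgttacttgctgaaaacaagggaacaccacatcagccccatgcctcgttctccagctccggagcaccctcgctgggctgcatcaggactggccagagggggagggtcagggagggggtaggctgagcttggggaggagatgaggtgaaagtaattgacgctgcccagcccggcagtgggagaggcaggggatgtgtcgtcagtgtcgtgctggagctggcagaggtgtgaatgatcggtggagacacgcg
The upstream window held the letters at 2 places, and the downstream window held none. RefSeq gives a further Slc6a9 window, at chr4:117855297-117855596, which held none and is not shown. Of all 32851 promoter windows of this length in the table, 35.7% held them on either strand.

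**Figure D3:**
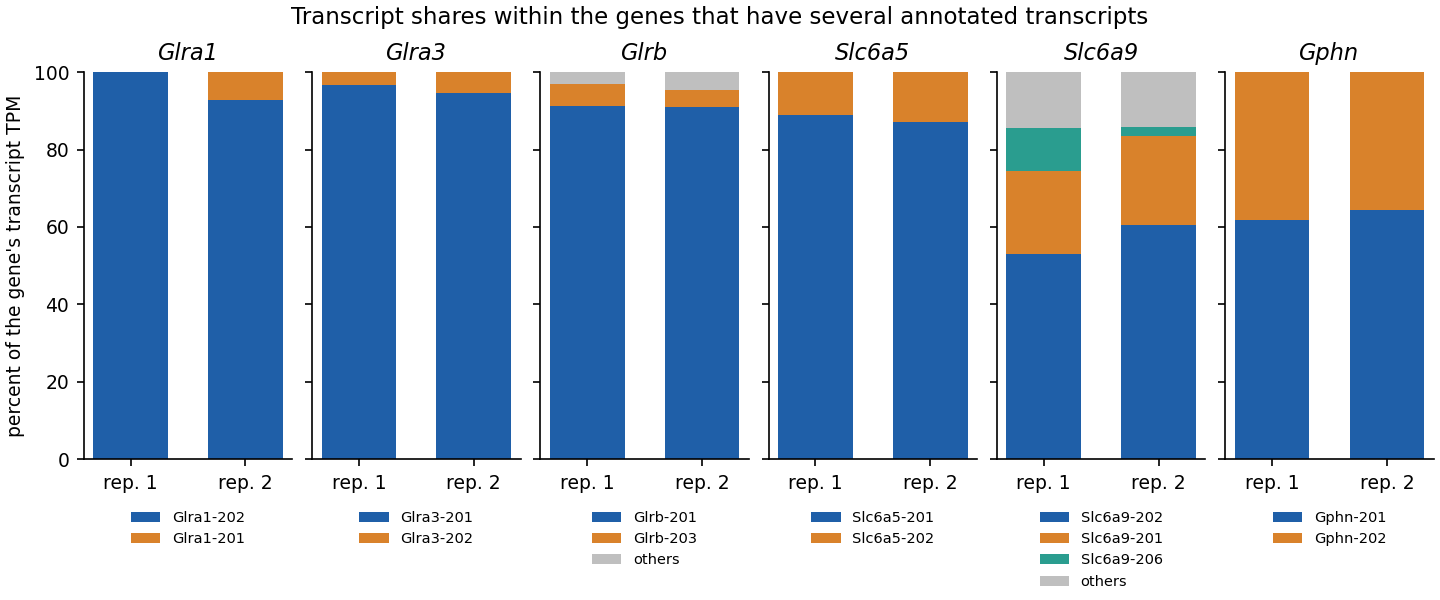
Share of each transcript in the summed transcript TPM of its gene (percent), with 1 bar per library; transcripts under 5% in both libraries are joined as others. Gphn is divided at 61.9% and 64.4% for Gphn-201, Slc6a9-206 differs most between the libraries, and the other genes have 1 leading transcript at 87.1% or more.

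The pools differed by less than 1.5-fold for every member, as they did for most genes. As the log2 ratio of replicate 1 over replicate 2 after TMM scaling, no member passed 1.5-fold, against 6.48% of the 17048 genes whose mean count was at least 20. The ratios of the members ran from -0.19 for Slc6a9 to 0.13 for Slc6a5. Over all genes compared, the SD of this ratio was 0.40. With so low a background share, a count over 7 genes says little about the members. Of the genes compared, 2.25% lay closer to 0 than Glrb, the closest member, and 68.9% closer than Slc6a9, the furthest.

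Glra2 had a log2 ratio of -0.09 with a 95% exact (Clopper-Pearson) interval of -0.16 to -0.01. Glrb had -0.00 with an interval of -0.08 to 0.07, and Gphn had -0.06 with an interval of -0.14 to 0.01. Slc6a5 had 0.13 (0.03 to 0.24) and Slc6a9 had -0.19 (-0.27 to -0.11). The intervals cover counting error only, and those of Glra2, Slc6a5 and Slc6a9 do not include 0. The spread of nuclear protein-coding genes within 2-fold of the same count was an SD of 0.13 for Glra2, 0.16 for Slc6a5 and 0.15 for Slc6a9, so only Slc6a9 lay beyond 1 such SD. In TPM the ratio of Slc6a9 was smaller, at -0.08 with 0.1 TPM added. Its effective length was 2549 bases in replicate 1 and 2808 bases in replicate 2, an average weighted by transcript. The short Slc6a9-206 was listed with the larger share in replicate 1, a difference within the error of the estimate. The part of transcript shares in the gap between these ratios was not tested.

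Glra1 had a log2 ratio of -0.15 with an interval of -0.56 to 0.26, and Glra3 one of 0.09 with an interval of -0.36 to 0.54. Both intervals include 0. Scaling by spike-in totals would move the median gene by 0.11 on this scale, and with it Glra2, Gphn and Glrb changed sign, at 0.03, 0.05 and 0.11.

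**Figure D4:**
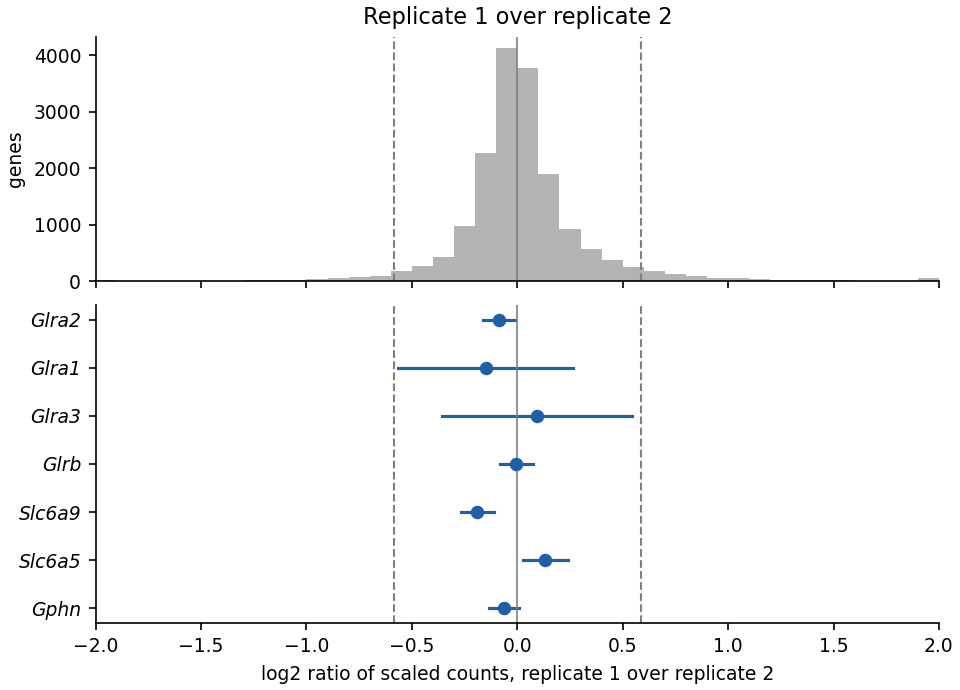
Top, histogram of the log2 ratio of replicate 1 over replicate 2 for the 17048 genes compared, with values beyond the axis in the end bins; bottom, the same ratio for each member, with its 95% counting interval. Dashed lines mark 1.5-fold, and all 7 members lie between them, from -0.19 to 0.13.

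The members were set beside 7 lists of 69 genes of the inhibitory synapse and of glycine use, of which 64 were detected. Of all nuclear protein-coding genes 63.1% were detected, and the count of each list below stands beside that share. All 24 synapse partners of receptor and gephyrin were detected, at a median of 47.4 ± 2.96 TPM. Highest were Dynll1, a dynein light chain that binds gephyrin, at 1028 ± 29.0 TPM, the actin regulators Pfn1 at 609 ± 43.8 and Pfn2 at 585 ± 15.7 TPM, and Gabarap at 457 ± 8.22 TPM. These are general cell components whose levels are not those of synapses alone. Slc32a1, the vesicular carrier for glycine and GABA, had 10.6 and 9.39 TPM, close to Slc6a5, and was named after its values were seen.

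Of the chloride transporters, Slc12a5 (KCC2), which exports chloride and makes glycine hyperpolarizing, had 32.3 TPM in replicate 1, against 37.5 TPM in replicate 2. Slc12a2 (NKCC1), which imports chloride, had 4.84 and 4.16 TPM. The exporter was thus higher in both libraries, although the importer is also made by other cell types.

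Each of the 9 genes of glycine synthesis and breakdown was detected, with a median of 36.7 ± 2.15 TPM. Phgdh, the first enzyme of serine synthesis, led at 148 ± 6.51 TPM, before Dld at 97.4 ± 3.59, Gcsh at 78.8 ± 0.799 and Psat1 at 74.6 ± 9.07 TPM. Gldc, the glycine decarboxylase that starts glycine cleavage and that radial glia express, had 6.9 and 7.35 TPM and was named after its value was seen.

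Of 7 other glycine carriers 5 were detected, near the 63.1% of all nuclear protein-coding genes, and the median over all 7 was 24.8 ± 3.15 TPM. The amino acid carriers Slc38a2, Slc38a3, Slc38a5 and Slc7a10 led, with 80.5 ± 2.88, 34.1 ± 1.23, 32.7 ± 1.12 and 24.8 ± 3.15 TPM. Slc6a20b had 0.26 TPM in replicate 1, against 0.34 TPM in replicate 2. Slc6a14 had 0.01 TPM from 1 count in replicate 1 and was listed at 0 in replicate 2, where 3 counts correspond to 0.0329 TPM.

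Gphn was higher than most of the genes it works with in molybdenum cofactor synthesis and use. Of those 7 genes 4 were detected, near the 63.1% of all nuclear protein-coding genes, and the median over all 7 was 3.49 ± 1.36 TPM. Mocs2 stood at 101 ± 1.63 TPM, Suox, the sulfite oxidase that needs the cofactor, at 12.4 ± 0.0849, Mocs3 at 7.53 ± 1.06 and Mocs1 at 3.49 ± 1.36 TPM. Xdh, Aox1 and Mocos were under 1 TPM in both libraries, with 0.16 and 0.14, 0.27 and 0.21, and 0.15 and 0.17 TPM in replicates 1 and 2.

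Each of the 10 transcription factors of glycine and GABA neurons was detected, with a median of 13.97 ± 1.71 TPM. Tfap2b led at 57.4 ± 7.48 TPM, before Lhx1 at 37.3 ± 10.3, Gata3 at 24.6 ± 1.84 and Lhx5 at 23.9 ± 3.11 TPM. Of these genes 2 passed 1.5-fold between the pools, against 6.48% of all genes compared. They were En1 with a log2 ratio of 1.10 and Ptf1a with -0.88, named after their values were seen. En1 is also a midbrain marker. The 5 midbrain markers summed to 95.2 TPM in replicate 1, against 64.6 TPM in replicate 2. That sum includes En1 itself and Sox14, which is also in this list of transcription factors. Ptf1a is also a cerebellum marker. Of the 5 cerebellum markers 1 was more than 1.5-fold higher in replicate 1, and 1, Ptf1a itself, was more than 1.5-fold lower. The part of the midbrain and cerebellum in the ratios of En1 and Ptf1a was not tested.

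All 10 splicing regulators were detected, at a median of 61.1 ± 2.46 TPM. Elavl4 had 265 ± 5.12 TPM, Rbfox1 144 ± 10.4, Ptbp2 129 ± 1.73 and Rbfox2 73.6 ± 4.11 TPM. Nova1 and Nova2, neuronal RNA-binding proteins known in mice to act on alternative exons of Glra2 and Gphn, had 53.4 ± 0.148 and 13.2 ± 0.0566 TPM and were named after their values were seen. All 6 markers of astrocytes and radial glia were detected, with a summed level of 2064 TPM in replicate 1, against 2152 TPM in replicate 2. Most of that sum came from Fabp7. Whether the cells with these markers make Slc6a9 was not tested.

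**Figure D5:**
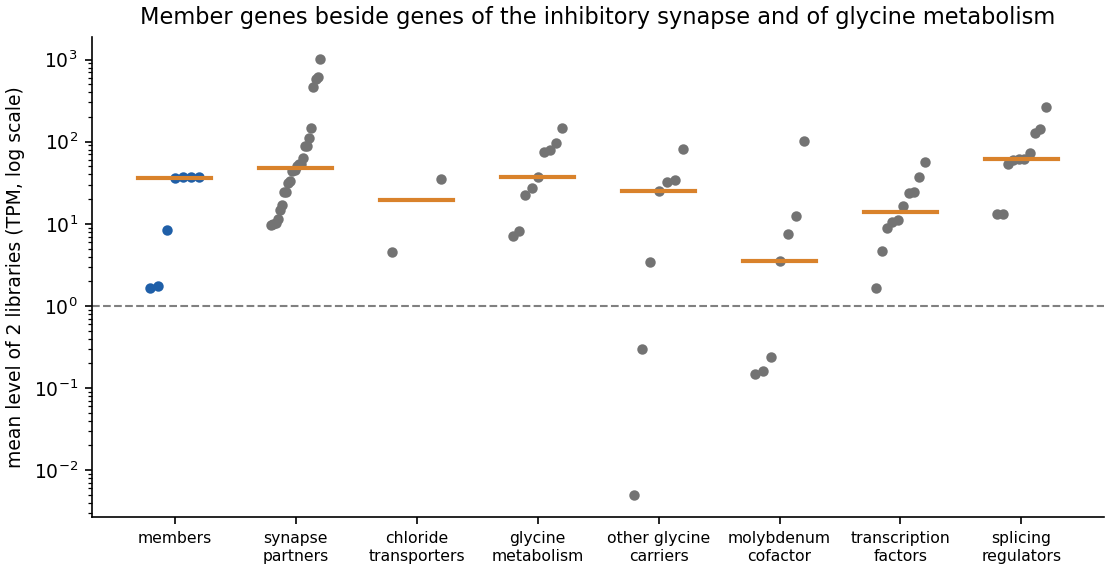
Mean level over the libraries (TPM, log axis) of each member and of each gene in the 7 lists, with a bar at the median and a dashed line at 1 TPM. The members' median of 36.3 TPM lies close to that of glycine synthesis and breakdown at 36.7 TPM, and 5 genes of the lists lie below the line.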

How the data were processed

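Total RNA of 2 hindbrain pools was sequenced, 1 library each. Per the file headers and the notes deposited with them, each library was quantified by itself against mm10 and annotation M4. Which aligner and quantifier were run, and whether strand was used, is not given in the sources used here. Among the extraction texts is a SMARTer kit manual, per the labels' protocols.

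Estimated counts were deposited without normalization, for genes and for transcripts. TPM as deposited sums over all features, spike-ins among them. FPKM as deposited was read for an alternative detection minimum. The deposited posterior values and interval bounds are a signal with its own spread. The deposited percent per transcript was not used, and shares were computed from TPM.

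The tables held 43346 genes, 97 spike-in features and 26248 numeric identifiers; the last 2 kinds stayed out of library sizes and lists. They held 2.86% and 3.09% of counts as spike-ins in replicates 1 and 2. For 42462 genes the identifier without version was found in GENCODE M21 (GRCm38, the assembly of mm10), which gave names, types, positions and transcript sequences. The 7 members had 28 transcripts in the tables, of which 25 have the same length in M21. Promoter windows came from RefSeq and matched 6 members.

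TMM factors for the counts were computed by edgeR 4.0.16 (R 4.3.3). Ratios used a prior count of 0.5 and genes of mean count 20 or more. The method had first been tested on simulated counts that held counting error and planted changes, without other spread between pools. With 1 group of 2 libraries no p-value was computed. Named were the members, Glra4, transcripts of 5% or more in either library, and in each list the 4 highest genes and those under 1 TPM. Alternatives were other minimums, posterior TPM, counts, coding transcripts alone, TPM over nuclear coding genes, DESeq2 1.42.0 size factors, library and spike-in totals, TPM ratios with 1 or 0.1 added, and each library alone. The members, lists and rules were chosen with earlier results of these data known. Coding sequences were aligned with Biopython 1.88. Values of 2 list genes are not reported here.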

Additional observations from a re-analysis of the deposited data

How the results depend on the processing

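All 7 members were detected at a minimum of 0.5 TPM, on the lower posterior bound and in each library alone, 5 at 2 TPM and 6 at 1 FPKM. Of the 21461 nuclear protein-coding genes, 14311 were detected at 0.5 TPM and 13233 on the lower bound. Replicate 1 alone gave 13768 and replicate 2 alone 13733, while 2 TPM gave 12599 and 1 FPKM 12911. The share of Glra2 in the alpha subunits was 91.2%, and 90.9% in posterior mean TPM, 93.9% in estimated counts, 91.4% over coding transcripts alone and 91.0% to 91.3% in single libraries. The share of Glrb in all subunits, 48.0%, was 46.5% in counts and 46.0% over coding transcripts, and 47.2% to 48.8% in single libraries. The alpha sum over Glrb, 1.08, was 1.15 and 1.18 under the same changes, and 1.05 to 1.12 in single libraries. The share of Slc6a5 in the transporters, 18.5%, was 35.2% in counts, which are not corrected for length, and 20.9% over coding transcripts, and 17.6% to 19.3% in single libraries. The share of Gphn-201, 63.2%, lay between 61.9% and 64.4% under every alternative run. No member passed 1.5-fold under any scaling run. Of the 69 list genes 63 or 64 were detected under every alternative run, and of the marker genes 34 to 46, the last in replicate 2 alone, against 40 as reported. Scaling TPM over nuclear coding genes alone would put Glra2 at 46.1 TPM. No paired analysis was possible because there was a single group. Depth limits Glra1, Glra3 and Glra4 most, and rare transcripts.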

Other observations

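RefSeq gave 9 promoter windows of 300 bases for 6 of the 7 members, namely Glra2, Glra3, Glrb, Slc6a5, Slc6a9 and Gphn. That of Gphn, a gene made in all tissues, held 42 CpG dinucleotides and was 77.0% G and C, with 97.0% of all windows lower in CpG. That of Glrb held 30 CpG and was 65.7% G and C. The windows of Glra2, Glra3, Slc6a5 and Slc6a9 held 7 to 14 CpG each, against a median of 7 over all 32851 windows. The letters GGGCGG or CCGCCC stood in 5 of the 9 windows, against 35.7% of all windows, and no set was tested.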
